A study of Mus musculus with 6 samples.

Results

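The 34 genes described here are those of the interferon response and of class I antigen presentation: RNA sensors, transcription factors, antiviral effectors, and the proteasome subunits, transporter, loading factor and chains that bring peptides to the cell surface. Every probe set that the array's annotation assigns to 1 of these genes alone was kept. That gave 61 of the 45033 probe sets tested, for 32 of the 34 genes. The 2 others have no probe set of their own. A probe set for Isg15 also names Gm9706. For Ifi44 no probe set was analysed here, and only its promoter is counted below.

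Affymetrix mouse arrays, 6 in number, had been hybridised with biotin-labelled cRNA of C2C12 cells. C2C12 is a myoblast line of the mouse whose cells fuse into myotubes in low serum. The cells of both groups had been kept in Dulbecco's modified Eagle medium with 2% horse serum for 28 hours. On 3 arrays, the controls, the cells had been transfected with an shRNA against GFP, a protein that mouse cells do not make. On the other 3, they had been transfected with an shRNA against PRDM2, a histone H3 methyltransferase with a PR domain. The labels give no hairpin sequence and do not say whether the transfected cells were selected or cloned. Both groups therefore carried a short hairpin RNA, and no array of untransfected cells was used here, so any effect that transfection or a hairpin has in both groups is not visible in the comparison. The labels call the arrays of a group biological replicates without saying what separated them, and a p-value measures only the spread between these samples.

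Interferons bind receptors on the cell surface, whose kinases activate STAT factors. Type I interferon, which cells release on sensing viral RNA or DNA, acts mainly through a complex of Stat2 and Irf9 with a further STAT protein, which binds the interferon-stimulated response element of antiviral genes. Interferon gamma acts through another site, the gamma activated site, and through Irf1, and raises class I antigen presentation: the immunoproteasome cuts peptides, the Tap transporter carries them into the endoplasmic reticulum, and tapasin (Tapbp) helps load them onto a heavy chain (H2-K1 or H2-D1) paired with B2m. Resting myoblasts are known to carry little class I protein, and interferon raises it.

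Values are given as log2(intensity + 16), here called log2 values; an intensity of 0 corresponds to a log2 value of 4, and changes near that floor are understated. A log2 fold change is the mean of the PRDM2 shRNA arrays minus the mean of the control arrays. Brightness depends on a probe set's sequence as well as on its transcript, so levels are compared between arrays and not between genes. In bulk RNA, a smaller number of cells with a transcript and less of it per cell cannot be told apart.

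Some facts of the whole series bear on what follows. The median intensity of the arrays lay between 10.7 and 11.4 units. Prdm2, the targeted gene, was not lower on the PRDM2 shRNA arrays: its 3 probe sets had log2 fold changes of 0.07, 0.12 and 0.15, so every direction below rests on the labels. Control array 2 lay closer to PRDM2 shRNA array 2 than to any control. Over the probe sets above the upper quartile of brightness, the median absolute deviation of their log2 differences (scaled as an SD) was 0.0758, and that of the next closest of the 15 pairs of arrays was 0.199. Fold changes are therefore given with all 6 arrays and without control array 2. The labelled cell type had its markers, with 9 of 10 myogenic probe sets (Myod1, Myog, Acta1 and others) at or above a mean of 50 units and summed intensities of 13324 to 14516 in controls and 13561 to 14868 in the PRDM2 shRNA group. Those sums are carried by the brightest of them. The myoblast factor Myf5 had a log2 fold change of -1.32 (SE 0.46, adjusted p = 1, limma) and was lower without control array 2, at -1.90 (SE 0.11, adjusted p = 0.0077, limma); its part in the values below was not tested. Leukocytes carry many of the genes described here, and 8 of 11 leukocyte probe sets had means under 16 units. Their summed intensities ran from 132.9 to 210.8 in controls and from 132.4 to 234.4 in the PRDM2 shRNA group. The macrophage marker Cd68 read between 2.35 and 3.51 units, and the only leukocyte probe set with a mean at or above 50 units was 1 of Csf1r, which ranged from 34.5 to 133.5 units. All 5 endothelial probe sets were under 16 units, with sums of 13.8 to 20.4 in controls and 16.4 to 20.0 in the PRDM2 shRNA group.

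With all 6 arrays, 0 of the 61 probe sets differed between the groups at an adjusted p under 0.05 (limma), where 0% of all probe sets were called. At an unadjusted p under 0.05 there were 3 of the 61 (4.92%) and 1326 of all 45033 (2.94%). Without control array 2, again 0 of the 61 passed (limma), where 238 of all probe sets (0.529%) did, and 8 (13.1%) had an unadjusted p under 0.05, beside 10.2% of all. The smallest adjusted p among the 61 was then 0.111 (limma), for H2-K1. The median log2 fold change of the 61 was 0.016 with all 6 arrays and -0.0011 without control array 2, and that of all probe sets was 0 and -0.0032. Of the 61, 35 (57.4%) lay above 0 with all 6 arrays, beside 50% of all probe sets. Without control array 2, 30 (49.2%) did, beside 49.1% of all.

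The widest movements lay in the class I heavy chains, as the map of deviations shows. All 13 probe sets of H2-K1 and H2-D1 had a log2 fold change above 0 with all 6 arrays, with a median of 0.17. Without control array 2, 12 of 13 did, with a median of 0.33. Of all probe sets, 50% and 49.1% lay above 0. The 13 were set apart with results of these data known and are not independent of each other, and 4 of them had means under 16 units. None of the 13 passed the threshold in either comparison (limma). The other 48 probe sets had medians of -0.014 and -0.029.

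**Figure D1:**
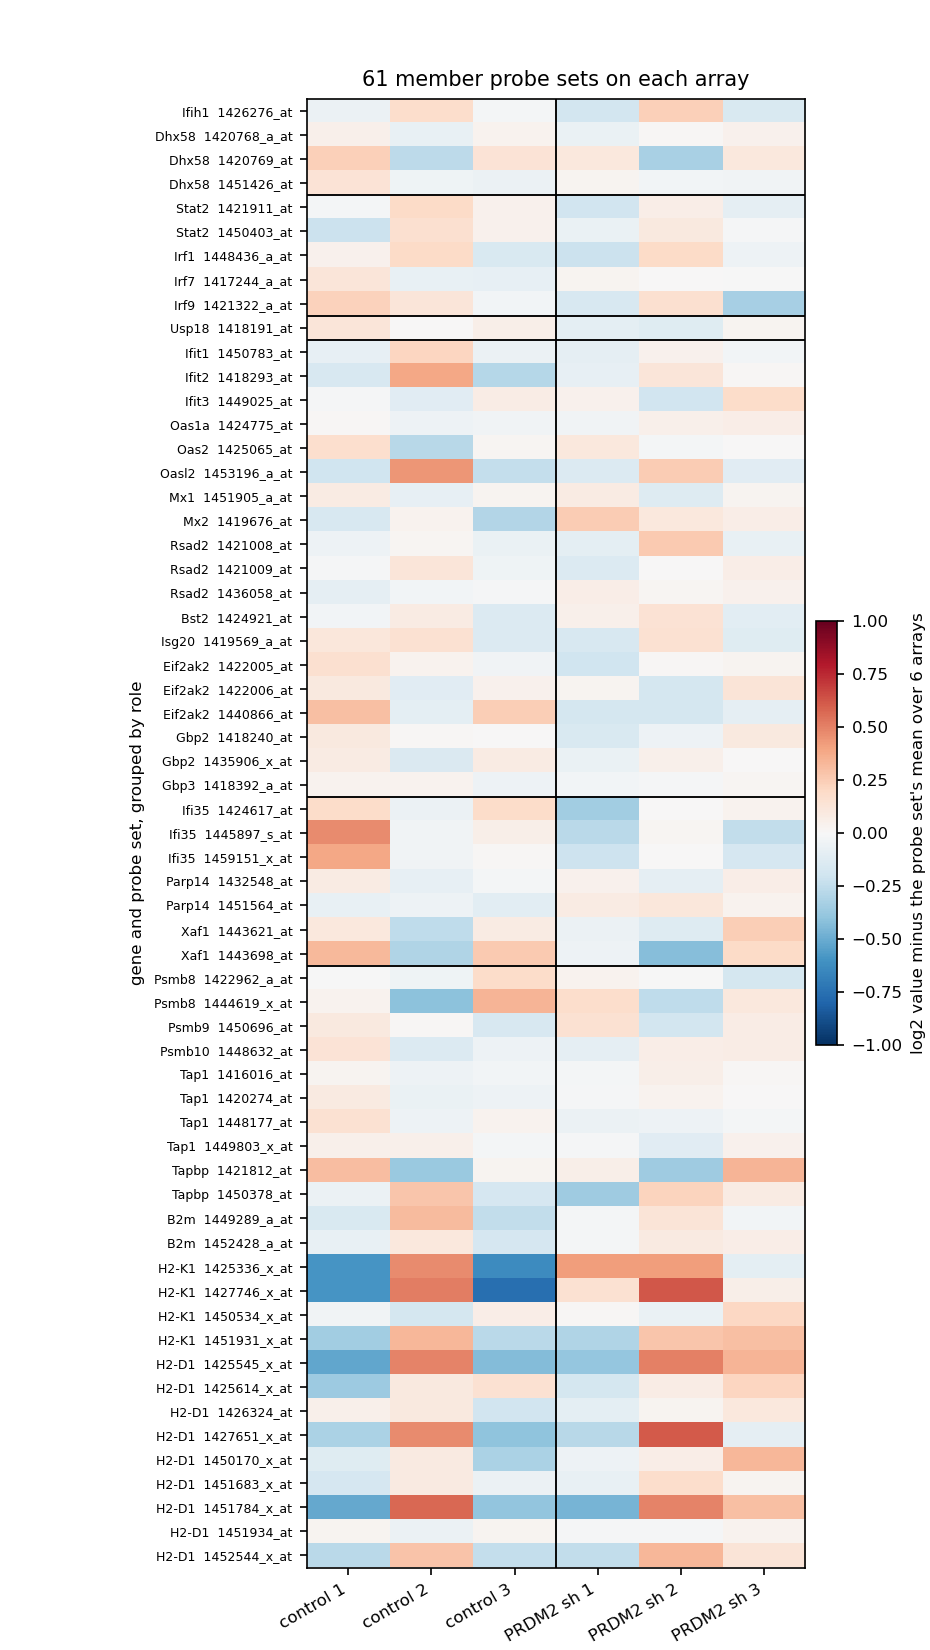
Each of the 61 probe sets (rows, grouped by role) on each array (columns), coloured by its log2 value minus its own mean over the 6 arrays, with controls left of the vertical line. The strongest colours lie in the rows of H2-K1 and H2-D1, where controls 1 and 3 are mostly blue and both arrays numbered 2 mostly red.

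For most of the induced genes the arrays recorded little signal in either group. In 20 of the 32 genes every probe set had a mean under 16 units: the sensors Ifih1 and Dhx58, the factors Stat2, Irf7 and Irf9, the ISG15 protease Usp18, the antiviral effectors Ifit1, Ifit3, Oas1a, Oasl2, Mx1, Mx2, Rsad2, Bst2, Isg20, Gbp2 and Gbp3, as well as Parp14, Psmb9 and Tap1. The highest intensity on any array among their 30 probe sets was 19.2 units. Their log2 fold changes lay between -0.22 and 0.28, and between -0.23 and 0.37 without control array 2. Another 4 genes, Eif2ak2, Ifit2, Oas2 and Xaf1, reached 35.8 units at most. Only 8 genes had a probe set with a mean at or above 50 units: B2m, H2-D1, H2-K1, Ifi35, Irf1, Psmb10, Psmb8 and Tapbp. Dim probe sets were about as common among the 61 as on the whole array: 37 of 61 (60.7%) had a mean under 16 units, beside 56.7% of all. At or above 50 units there were 12 (19.7%), beside 25.7% of all.

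The sensors are helicases of the RIG-I family, which detect viral double-stranded RNA in the cytosol. Ifih1, which encodes MDA5, read 4.26, 4.49 and 4.29 on control arrays 1, 2 and 3 and 4.13, 4.55 and 4.16 on PRDM2 shRNA arrays 1, 2 and 3. Both arrays numbered 2 were the higher ones, the groups overlapped, and the log2 fold change was -0.07 with all 6 arrays and 0.0061 without control array 2. The 3 probe sets of Dhx58, a regulator of the other sensors, had log2 fold changes between -0.08 and -0.0074, and between -0.23 and -0.05 without control array 2. All 4 sensor probe sets had means under 16 units.

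Among the transcription factors only Irf1 had a mean at or above 50 units. It is induced by interferon gamma and acts on the immunoproteasome and Tap genes. Irf1 read 7.74, 7.88 and 7.54 on the control arrays and 7.47, 7.88 and 7.64 on the PRDM2 shRNA arrays. The groups overlapped, and both arrays numbered 2 again held the highest value of their group. Irf1 thus had a log2 fold change of -0.05 (SE 0.13, adjusted p = 1, limma, n = 3 per group), and 0.03 (SE 0.14) without control array 2. The subunits of the type I interferon complex were dim. For Irf9 the log2 fold change was -0.22 (SE 0.14), and -0.21 without control array 2, with PRDM2 shRNA array 3 lowest at 4.36 and control array 1 highest at 4.93. Stat2 had 2 probe sets that pointed different ways, at -0.14 and 0.0073, and at -0.08 and 0.09 without control array 2. Irf7, which amplifies interferon production, had 0.02, and -0.013 without control array 2.

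Isg15 is a ubiquitin-like protein that cells attach to others on infection, and Usp18 removes it and also dampens the interferon receptor. Usp18 read 4.29, 4.18 and 4.23 on the control arrays and 4.08, 4.05 and 4.20 on the PRDM2 shRNA arrays, all within 0.3 of the floor. Its log2 fold change was -0.13 (SE 0.08), and -0.16 without control array 2. The probe set shared by Isg15 and Gm9706, which is not counted among the 61, read 4.94, 5.09 and 4.77 in controls and 4.78, 5.08 and 4.72 with the PRDM2 shRNA.

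The antiviral effectors, 14 genes with 19 probe sets, block viral translation, replication or release. Their median log2 fold change was -0.013 with all 6 arrays and -0.0011 without control array 2, with 9 of 19 above 0 each time. The Ifit proteins bind viral RNA, the Oas enzymes start its degradation, Rsad2 (viperin) makes a chain-terminating nucleotide, and Bst2 (tetherin) holds budding virions at the membrane. Of all 61 probe sets, 3 had groups that did not overlap, all higher with the PRDM2 shRNA, where 7.24% of all probe sets did not overlap. Those were Mx2, Parp14 and 1 of the 3 probe sets of Rsad2, each of them dim.

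Mx2 is a dynamin-like GTPase that restricts viruses. Its intensities were 4.67, 7.41 and 2.92 units on the control arrays and 11.8, 8.71 and 8.51 units on the PRDM2 shRNA arrays, so that each of the latter read higher than each control. On the log2 scale the difference was 0.28 (SE 0.11, unadjusted p = 0.034, adjusted p = 1, limma), and 0.37 (SE 0.10, adjusted p = 0.236, limma) without control array 2. Its close relative Mx1 had a log2 fold change of -0.02, and -0.07 without control array 2. Ifit2 read 5.10, 5.65 and 4.97 on the control arrays and 5.18, 5.38 and 5.27 on the PRDM2 shRNA arrays. Here control array 2 was the highest of all 6, and the log2 fold change was 0.04 (SE 0.18) with it and 0.24 (SE 0.10, adjusted p = 0.482, limma) without it. Ifit1 and Ifit3 had -0.05 and 0.03, and without control array 2 the opposite signs, 0.05 and -0.02.

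Eif2ak2 encodes PKR, the kinase that stops translation on binding double-stranded RNA. Of its 3 probe sets, 1440866_at read 5.16, 4.76 and 5.10 on the control arrays and 4.68, 4.68 and 4.76 on the PRDM2 shRNA arrays. Control array 2 lay level with the highest of the PRDM2 shRNA arrays, and the 2 other controls lay above all of them. The log2 fold change was -0.30 (SE 0.12, unadjusted p = 0.039, adjusted p = 1, limma), and -0.42 (SE 0.08, adjusted p = 0.116, limma) without control array 2. The other probe sets of Eif2ak2 had log2 fold changes of -0.11 and -0.014, and -0.12 and -0.08 without control array 2.

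Ifi35 and Parp14 are interferon-induced regulators, and Xaf1 promotes cell death. All 3 probe sets of Ifi35 had log2 fold changes below 0, at -0.21, -0.33 and -0.24 with all 6 arrays and -0.29, -0.43 and -0.32 without control array 2. The brightest read 7.82, 7.31 and 7.40 on the control arrays and 7.07, 7.36 and 7.10 on the PRDM2 shRNA arrays. Control array 1 stood above the rest, and PRDM2 shRNA array 2 lay between the other controls. Its difference had an SE of 0.15 and an adjusted p of 1 (limma), and without control array 2 an SE of 0.16 and an adjusted p of 0.409 (limma). The 2 other Ifi35 probe sets read 5.89, 5.64 and 5.89 against 5.36, 5.71 and 5.74, and 6.48, 6.06 and 6.10 against 5.89, 6.10 and 5.93, with overlapping groups in both. A dim probe set of Parp14 read 4.32, 4.34 and 4.29 on the control arrays and 4.47, 4.51 and 4.43 on the PRDM2 shRNA arrays, each of the latter above each control. It had a log2 fold change of 0.16 (SE 0.07, unadjusted p = 0.049, adjusted p = 1, limma), and 0.17 without control array 2, and the other probe set had 0.015 and -0.02. The 2 probe sets of Xaf1 had log2 fold changes of 0.04 and -0.19 with all 6 arrays and of -0.08 and -0.39 (SE 0.18) without control array 2, and were both lowest on the arrays numbered 2 of each group.

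The immunoproteasome subunits Psmb8, Psmb9 and Psmb10 replace constitutive subunits under interferon. Psmb8 had a brighter probe set that read 6.21, 5.77 and 6.52 on the control arrays and 6.36, 5.93 and 6.29 on the PRDM2 shRNA arrays, with both arrays numbered 2 lowest in their group. Its log2 fold change was 0.02 (SE 0.21), close to 0 for its SE, and -0.18 (SE 0.16) without control array 2. Its other probe set had -0.09 and -0.14. Psmb10 read 6.74, 6.46 and 6.55 on the control arrays and 6.51, 6.67 and 6.68 on the PRDM2 shRNA arrays. The groups overlapped, with a log2 fold change of 0.04 (SE 0.10), and -0.02 without control array 2. Psmb9 was dim and had 0.03 and 0.05. The constitutive subunits that these replace lay close to 0 or below it: Psmb5 at -0.04 (SE 0.07), Psmb6 at -0.15 (SE 0.11) and Psmb7 at -0.04 (SE 0.09), none of them called (limma). Without control array 2 they had -0.06, -0.25 and -0.05.

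Tap1, a subunit of the peptide transporter, had 4 dim probe sets between -0.09 and 0.03, and between -0.14 and 0.015 without control array 2. Tapbp, or tapasin, read 8.27, 7.60 and 8.00 on the control arrays and 8.03, 7.61 and 8.31 on the PRDM2 shRNA arrays in its brighter probe set. The arrays numbered 2 were the lowest of both groups, and within 0.02 of each other. The log2 fold change was 0.025 (SE 0.23), and -0.15 (SE 0.21) without control array 2; the dimmer probe set of Tapbp gave -0.03 and 0.10.

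B2m, the invariant light chain of every class I molecule, had 2 bright probe sets. The first, 1449289_a_at, read 9.73, 10.19 and 9.63 on the control arrays and 9.86, 10.01 and 9.85 on the PRDM2 shRNA arrays. Control array 2 was the highest of all, and the 3 PRDM2 shRNA arrays lay above controls 1 and 3. B2m had a log2 fold change of 0.06 (SE 0.15, adjusted p = 1, limma), and 0.23 (SE 0.09, 95% interval 0.0017 to 0.45, adjusted p = 0.484, limma) without control array 2. The other B2m probe set had the same order of groups, with 0.09 and 0.17.

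H2-K1 encodes the K heavy chain, which presents peptides to CD8 T cells. In units of intensity, its probe set 1427746_x_at read 5.29, 31.0 and 3.02 on control arrays 1, 2 and 3, and 19.9, 34.1 and 17.2 on PRDM2 shRNA arrays 1, 2 and 3. Controls 1 and 3 stood alone at the bottom, and control array 2 read with the PRDM2 shRNA arrays. They differed by a log2 fold change of 0.56 (SE 0.34, 95% interval -0.26 to 1.37, adjusted p = 1, limma), and 0.95 (SE 0.18, 95% interval 0.51 to 1.39, adjusted p = 0.111, limma) without control array 2.

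The probe set 1425336_x_at of H2-K1 had the same shape. Its log2 values were 4.82, 5.88 and 4.78 on the control arrays and 5.82, 5.83 and 5.31 on the PRDM2 shRNA arrays, with controls 1 and 3 again lowest. The difference was 0.49 (SE 0.31) with all 6 arrays and 0.85 (SE 0.17, adjusted p = 0.126, limma) without control array 2. With PRDM2 shRNA array 3 left out as well, this probe set passed, at 1.02 (adjusted p = 0.046, limma), from 2 arrays per group and where 0.275% of all probe sets did. Control array 2 was the highest control here and PRDM2 shRNA array 3 the lowest of its group. Leaving both out thus widened the difference and narrowed the spread. Leaving out any of the 4 other arrays beside control array 2 called 0 of the 61 (limma). A probe set that names both H2-K1 and H2-D1, and so is not counted among the 61, had log2 values of 4.40, 5.74 and 4.52 in controls and 5.31, 5.74 and 4.97 with the PRDM2 shRNA.

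The 2 other probe sets of H2-K1 did not share that shape. They were the brighter ones, with mean intensities of 107.2 units (1451931_x_at) and 46.1 units (1450534_x_at). The means were 18.4 units for 1427746_x_at and 29.2 units for 1425336_x_at. The probe set 1451931_x_at read 6.57, 7.25 and 6.65 on the control arrays and 6.62, 7.20 and 7.22 on the PRDM2 shRNA arrays. Here PRDM2 shRNA array 1 lay with controls 1 and 3, and the log2 fold change was 0.19 (SE 0.23), and 0.40 (SE 0.19, adjusted p = 0.585, limma) without control array 2. The fourth, 1450534_x_at, had 0.10 and 0.04. Probe sets of H2-K1 therefore disagreed in size, from 0.04 to 0.95 without control array 2.

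H2-D1, which encodes the D heavy chain, had 9 probe sets. The bright 1425545_x_at read 7.13, 8.14 and 7.21 on the control arrays and 7.26, 8.15 and 7.99 on the PRDM2 shRNA arrays. Both arrays numbered 2 and PRDM2 shRNA array 3 formed a high set, and PRDM2 shRNA array 1 lay next to controls 1 and 3. That gave a log2 fold change of 0.31 (SE 0.34, adjusted p = 1, limma), and 0.63 (SE 0.26, 95% interval 0.0021 to 1.26, adjusted p = 0.487, limma) without control array 2. Another bright probe set, 1450170_x_at, read 7.42, 7.63 and 7.22 on the control arrays and 7.49, 7.60 and 7.87 on the PRDM2 shRNA arrays, with 0.23 (SE 0.14) and 0.33 (SE 0.14). Another, 1451784_x_at, had 0.22 (SE 0.36) and 0.56 (SE 0.28), with PRDM2 shRNA array 1 between controls 1 and 3. The dim 1451934_at was the only heavy chain probe set below 0 without control array 2, at -0.02.

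**Figure D2:**
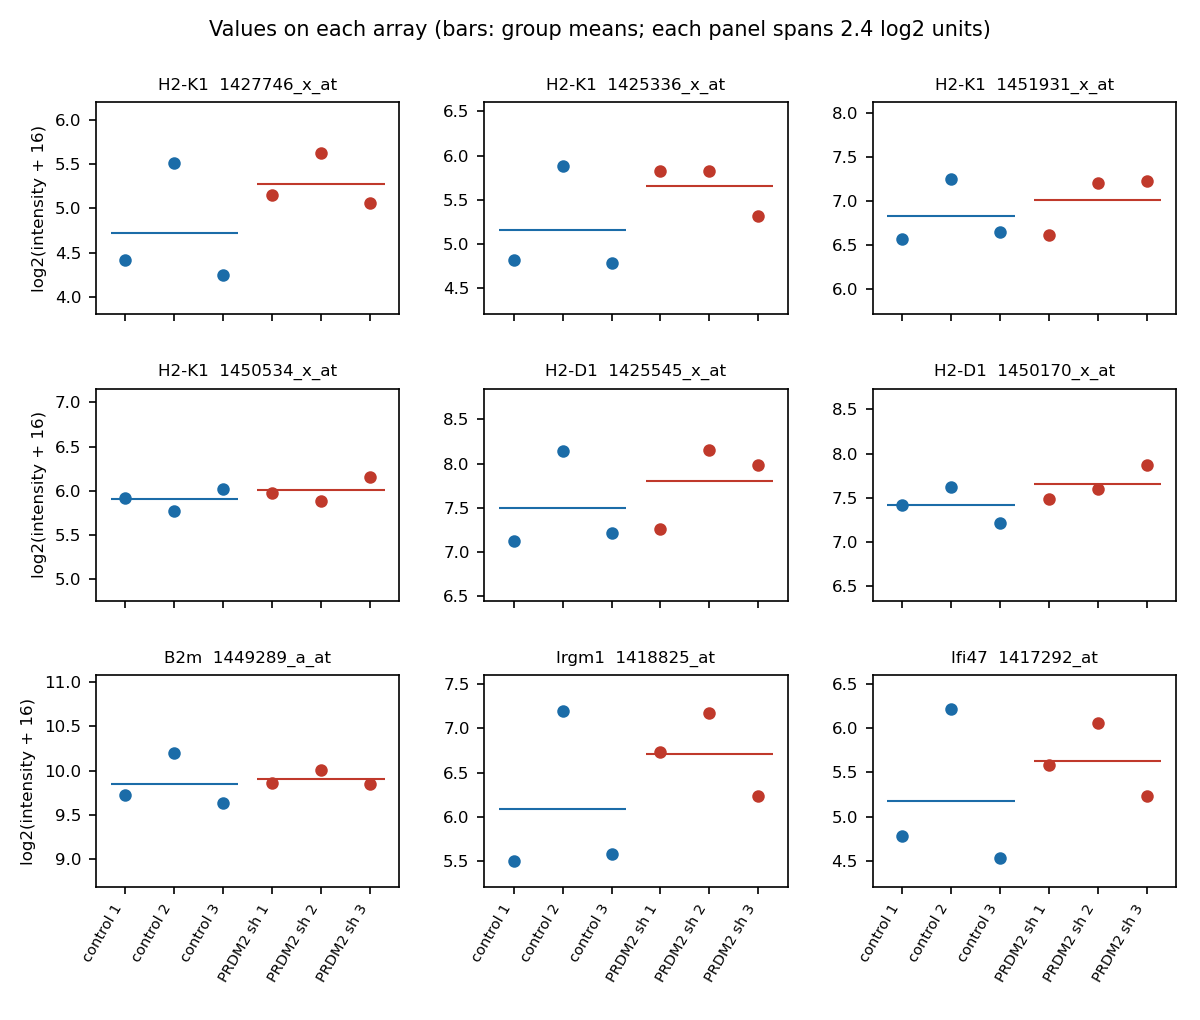
Log2 values of 7 class I probe sets and of the GTPases Irgm1 and Ifi47 on each array (blue: controls, red: PRDM2 shRNA, bars: group means, every panel spanning the same height). Control array 2 lies with the PRDM2 shRNA arrays in most panels, for example at 5.51 beside 5.15, 5.63 and 5.06 for H2-K1 1427746_x_at, where the other controls read 4.41 and 4.25.

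PRDM2 shRNA array 1 read below both other arrays of its group in 9 of the 13 heavy chain probe sets. With all 6 arrays, 0 of the 13 had groups that did not overlap. Without control array 2 there were 5 of the 13, 2 of H2-K1 and 3 of H2-D1, and 21 of all 61, of which 12 were higher, where 26.4% of all probe sets did not overlap.

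The mean heavy chain log2 value was alike on the arrays numbered 2 (control 5.99, PRDM2 shRNA 6.01). It was 5.48 and 5.88 on those numbered 3, and 5.45 and 5.63 on those numbered 1. In 10 of the 13 heavy chain probe sets (76.9%) each array numbered 2 read above the mean of the 2 other arrays of its group, where 32.5% of all probe sets and 26 of the 61 (42.6%) did. Each was the highest of its group in 7 of the 13 (53.8%), beside 20.7% of all probe sets. The 13 were set apart with results of these data known and are not independent of each other, so these shares are a description. Among all 25 antigen presentation probe sets the 2 counts were 13 (52%) and 10 (40%). Over the 61 probe sets, the median absolute deviation of the log2 differences between control array 2 and PRDM2 shRNA array 2 was 0.108. That was the smallest of the 15 pairs of arrays, with 0.117 for the next and 0.310 for the farthest. Deviations from the group mean correlated between same-numbered arrays over all probe sets at 0.324, 0.6 and 0.615. The labels give the shared numbers but no shared batch, and what the arrays numbered 2 have in common was not tested.

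**Figure D3:**
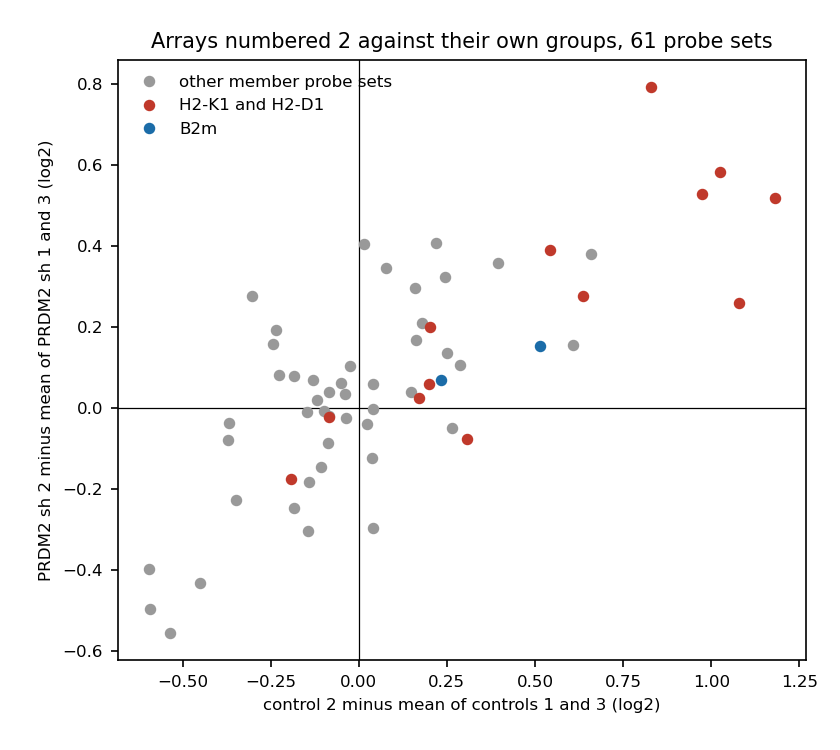
For each of the 61 probe sets, control array 2 minus the mean of controls 1 and 3 (horizontal, log2) against PRDM2 shRNA array 2 minus the mean of PRDM2 shRNA arrays 1 and 3 (vertical, log2). Of the 13 heavy chain probe sets (red), 10 lie in the upper right corner, where each array numbered 2 is above the mean of the other arrays of its group.

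With both arrays numbered 2 left out and the replicate number as a block, 1 of the 61 probe sets passed, where 1.59% of all did. It was H2-K1 1427746_x_at, with a log2 fold change of 0.78 (SE 0.09, adjusted p = 0.027, limma), from 2 arrays per group. Leaving out both arrays without the block called 0 of the 61 (adjusted p = 0.107 for the same probe set, limma). The block with all 6 arrays called 0 of the 61 (limma). H2-K1 1425336_x_at gave 0.77 in the fit without arrays numbered 2 (adjusted p = 0.065 with the block, limma), and H2-D1 1425545_x_at gave 0.45 (adjusted p = 0.301 with the block, limma).

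**Figure D4:**
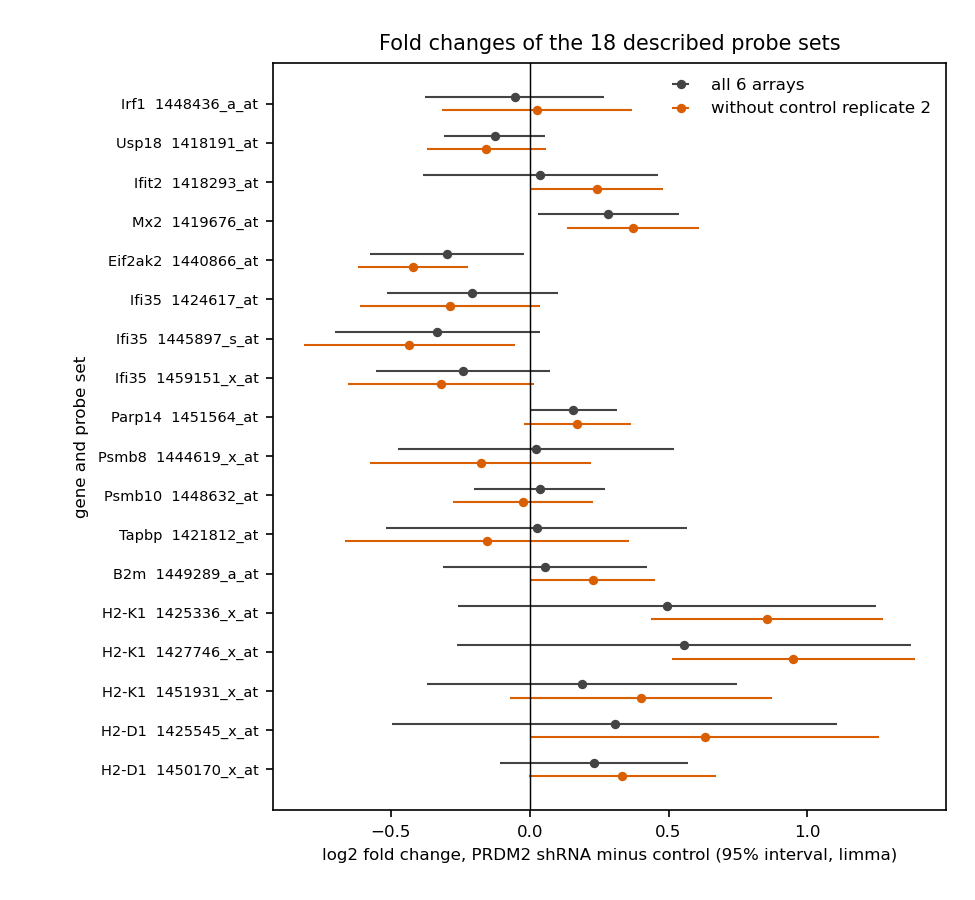
Log2 fold changes with 95% intervals (limma, unadjusted) of the 18 probe sets described one by one, with all 6 arrays (dark) and without control array 2 (orange). The 2 upper H2-K1 probe sets have intervals that include 0 with all 6 arrays and lie between 0.44 and 1.39 without control array 2.

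The heavy chain probe sets are not independent of each other, since the genes are close in sequence. Of the 13, 11 carry the suffix x_at, with which the manufacturer marks probes that can also match other transcripts, and class I genes differ between mouse strains. How far these probe sets cross-hybridise in these cells was not tested. Their promoters are shown as RefSeq gives them (assembly GRCm38.p6), and whether these cells carry the same sequence was not tested. Those of B2m and Ifit1, which hold an exact match to the core of the interferon-stimulated response element, are shown with them. The windows are 120 bases long, on the gene's own strand and upstream of its start: chr17:34000406-34000525 (minus strand), chr17:35262856-35262975 (plus), chr2:122147493-122147612 (plus) and chr19:34640739-34640858 (plus). Capitals in H2-K1 and H2-D1 mark the longest run of bases that both share, and in B2m and Ifit1 the core of the element, which is GAAA, any 2 bases and GAAA on either strand.
H2-K1: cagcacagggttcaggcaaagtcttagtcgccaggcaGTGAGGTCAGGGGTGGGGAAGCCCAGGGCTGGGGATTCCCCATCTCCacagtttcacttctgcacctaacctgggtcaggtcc
H2-D1: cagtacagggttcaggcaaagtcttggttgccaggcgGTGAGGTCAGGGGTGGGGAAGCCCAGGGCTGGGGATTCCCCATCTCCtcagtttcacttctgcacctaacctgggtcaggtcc
B2m: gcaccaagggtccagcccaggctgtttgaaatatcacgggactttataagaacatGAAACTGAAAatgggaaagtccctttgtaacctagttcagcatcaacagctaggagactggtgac
Ifit1: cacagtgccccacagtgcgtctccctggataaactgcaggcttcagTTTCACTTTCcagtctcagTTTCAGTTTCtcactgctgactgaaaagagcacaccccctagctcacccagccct

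The 2 heavy chain windows were placed around the longest run that both promoters share, so a high likeness was fixed by that choice. From the start they span -192 to -73 in H2-K1 and -238 to -119 in H2-D1. Aligned end to end, the 2 windows were the same at 115 of 120 bases, with a shared run of 47. That is no measure of how alike the whole promoters are. Neither heavy chain gene held the core of the response element in the 250 bases before to 50 bases after the start. The same was so for the gamma activated site, which is TTC, any 3 bases and GAA. That says only that these exact letters are not in that window. Forms of either element that differ from these letters were not searched for, so the windows may hold such forms. B2m held 1 core, at position -139 from the start, and Ifit1 held 2, at -104 and -85. Of the 34 genes, 28 were in the promoter table, 6 of them with more than 1 promoter. In 12 of the 28 genes (42.9%) a promoter held the core, beside 3.99% of all 27025 genes, and in 8 (28.6%) the gamma activated site, beside 9.55%. A match is a description of letters and not of binding. Whether such matches go with the values of the genes was not tested.

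The rest of the pathway was read from a list of 72 further names, of which 65 had 1 or more probe sets of their own, 124 in all. With all 6 arrays 0 of the 124 were called and without control array 2 again 0 (limma), where 0% and 0.529% of all probe sets were. At an unadjusted p under 0.05 there were 4 (3.23%) and 16 (12.9%), beside 2.94% and 10.2% of all, so the shares lay near those of the whole array. The receptor chain Ifnar1 had a log2 fold change of -0.15 (SE 0.12) in its brighter probe set, and -0.13 without control array 2. The ligand Ifnb1, with a mean of 4.09 units, had -0.04 (SE 0.07) and -0.07. Tap2, the partner of Tap1, was dim and had -0.15 (SE 0.07) and -0.13. Psme1, a subunit of the proteasome activator, had -0.27 (SE 0.15) and -0.40 (SE 0.13). The adaptor Mavs, which relays the RNA sensors' signal, had -0.27 (SE 0.08) and -0.28 in 1 probe set, and -0.16 (SE 0.13) and -0.25 in the other. Ifitm1, a membrane protein that hinders viral entry, had -0.29 (SE 0.32) and -0.37 (SE 0.37).

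Irgm1 and Rnf213 had the largest changes among brighter probe sets of that list. Irgm1, a GTPase induced by interferon gamma, read 5.50, 7.20 and 5.58 on the control arrays and 6.73, 7.17 and 6.23 on the PRDM2 shRNA arrays. Controls 1 and 3 lay at the bottom and control array 2 at the top. In H2-K1 1427746_x_at, too, controls 1 and 3 lay at the bottom and control array 2 was the highest control. The log2 fold change was 0.62 (SE 0.48, adjusted p = 1, limma), and 1.17 (SE 0.26, adjusted p = 0.159, limma) without control array 2.

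Rnf213, an interferon-inducible ubiquitin ligase, went the other way. It read 7.15, 6.43 and 6.78 on the control arrays and 5.95, 6.39 and 6.08 on the PRDM2 shRNA arrays. The groups did not overlap, although control array 2 came within 0.05 of PRDM2 shRNA array 2. The log2 fold change was -0.65 (SE 0.20, adjusted p = 1, limma), and -0.82 (SE 0.17, adjusted p = 0.139, limma) without control array 2, while another, dim probe set of Rnf213 had 0.07 and 0.04.

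With both arrays numbered 2 left out and the replicate block, 3 of the 124 passed (limma), where 1.59% of all probe sets did: Ifi47 at 0.75 (adjusted p = 0.030), Ube2l6 at -0.78 (adjusted p = 0.030) and Rnf213 at -0.95 (adjusted p = 0.042). Ifi47 and Ube2l6 are named after their values were seen. Ifi47, a GTPase of the family of Irgm1, read 4.79, 6.21 and 4.53 on the control arrays and 5.58, 6.06 and 5.23 on the PRDM2 shRNA arrays, again with control array 2 on top. Ube2l6, the enzyme that passes Isg15 to its targets, read 5.23, 4.56 and 5.12 on the control arrays and 4.37, 4.62 and 4.42 on the PRDM2 shRNA arrays. In Ube2l6, controls 1 and 3 lay above every other array. Without control array 2 and with no block, its difference was -0.71 (adjusted p = 0.066, limma).

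Over the arrays one by one, the mean log2 value of the 13 heavy chain probe sets was 5.45, 5.99 and 5.48 on the control arrays and 5.63, 6.01 and 5.88 on the PRDM2 shRNA arrays. The antiviral effectors had means of 4.63, 4.64 and 4.56 on the control arrays and 4.57, 4.63 and 4.62 on the PRDM2 shRNA arrays. In the heavy chains both arrays numbered 2 and PRDM2 shRNA array 3 were high. In the effectors the arrays numbered 2 also had the 2 highest means, and 16 of their 19 probe sets had means under 16 units, where changes are understated, so the spreads of the lists are not compared.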

How the data were processed

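Total RNA was extracted with Trizol and biotinylated cRNA was prepared from 8 ug of it, per the labels' protocols. The deposited table holds linear intensity values per probe set. GCOS and PLIER are the tools that the authors' processing notes name, per the submitters, without version or role. For the normalization between arrays, the method was not given in the sources used here. Of 45101 probe sets, 64 controls were left out, as were 4 that held a gene's Entrez number in place of an intensity on 1 array, which leaves 45033. The table had 0 further columns of samples. The platform annotation named 1 gene for 34941 probe sets, several for 932 and none for 9160; all 61 symbols used here matched RefSeq (GRCm38.p6).

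Values were taken as log2(intensity + 16) and quantile-normalized, since the upper quartiles of the arrays differed by 0.148, above a limit of 0.1. Groups were taken from the sample titles and compared, two-sided and without a block, by limma 3.58.1 (lmFit, eBayes; R 4.3.3), with p-values adjusted by Benjamini-Hochberg over all probe sets and a threshold of 0.05. The code was tested on simulated data. Same-numbered arrays deviated together (correlations above 0.1 in all 3 pairs), so a fit blocked on that number was read as paired, from the data and not from the labels. With 3 arrays per group, their number limits the precision.

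The members and lists were chosen with earlier results of these data known. Values on each array are given for the brightest probe set of a gene with a mean at or above 50 units, and for the 10 of smallest p in either fit; of other pathway genes, the 5 with the largest changes at or above 50 units and 6 fixed ones are named, with values on each array only for the largest 2 changes. Others named were chosen after their values were seen. Also tried were the deposited scaling, centring on the median, offsets of 1 and 64, a filter on dim probe sets, 1 probe set per gene, trend and robust eBayes, array weights, the block and leaving out arrays. Sequences and motif counts come from RefSeq promoters.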

Additional observations from a re-analysis of the deposited data

How the results depend on the processing

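With all 6 arrays, the count of called probe sets among the 61 stayed at 0 (limma) under every alternative run but 1: leaving out both arrays numbered 2 with the replicate block gave 1 among the 61 and 3 among the 124 other pathway probe sets. Without control array 2, the count rose from 0 to 1 with trend and robust eBayes, to 1 with the replicate block, and ranged from 0 to 1 on leaving out a further array. The probe set was H2-K1 1427746_x_at, except on leaving out PRDM2 shRNA array 3, where it was H2-K1 1425336_x_at (1.02, adjusted p = 0.046, limma). Without control array 2, the block leaves PRDM2 shRNA array 2 with no partner. That blocked fit is thus in effect the one with both arrays numbered 2 left out, and not a separate outcome. Over all probe sets, the 238 calls without control array 2 became 132 as deposited, 127 after median centring, 11 and 14 with offsets of 1 and 64, 528 with trend and robust eBayes, 369 with array weights, 717 with the block and 5 to 124 on leaving out a further array. Ube2l6 passed there with 1 probe set per gene, with trend and robust eBayes, with array weights and with the block. With all 6 arrays and the block, no call changed.

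Of 538 values for 18 probe sets of 13 genes, 508 kept their direction and side of the threshold, 26 changed sign and 4 passed the threshold. The 4 count that same blocked fit under both of its settings. The sign changes were in uncalled values, not all of them near 0: without control array 2, Psmb8 was -0.1761 and Tapbp -0.154. With array weights, Irf1 was 0.0129 and Psmb8 -0.1159. With both arrays numbered 2 left out, Psmb10 was -0.0508 and Psmb8 -0.0434, the same with the block. Without control array 2 and with the block, Irf1 was -0.0812 and Tapbp 0.0311. On leaving out 1 of 6 arrays, log2 fold changes ranged from -0.0546 to 0.2263 for B2m, -0.0946 to 0.2414 for Ifit2, -0.1626 to 0.0403 for Irf1, -0.0247 to 0.1148 for Psmb10, -0.1761 to 0.1983 for Psmb8 and -0.154 to 0.2101 for Tapbp. On leaving out another array beside control array 2, they ranged from -0.0812 to 0.1247 for Irf1, -0.1208 to 0.0715 for Psmb10 and -0.3166 to 0.0311 for Tapbp. The causes were not tested. With control array 2 and another control left out, the lone control is assumed to vary like the other group. Dim signal limits most genes: 37 of the 61 probe sets had means under 16 units.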
